A study of Homo sapiens with 6 samples.

Results

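The nuclear-encoded subunits of the respiratory chain and ATP synthase were examined in A549 cells, an established human lung adenocarcinoma line, after knockdown of the RNA helicase DDX17. Polyadenylated RNA was sequenced from 3 libraries of cells transfected with a nontargeting siRNA (siCtrl) and 3 libraries of cells transfected with a DDX17 siRNA (siDDX17). The methods describe siRNA in both groups and call the libraries biological replicates, whereas the genotype label of the control libraries reads control plasmid. The members are protein-coding rows chosen by gene symbol (NDUFA, NDUFB, NDUFC, NDUFS and NDUFV, SDHA to SDHD, UQCR, CYC1, the COX subunits and ATP5). The rule for symbols used no measured value, but it was chosen with earlier results of these data known. The rule found 86 of the 29476 genes counted, and 82 of them were among the 15615 genes that passed the expression filter of edgeR. The cells were a single line and a single siRNA, and the harvest time of the sequenced cells was not given apart from the 48 h stated for RT-qPCR.

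The respiratory chain passes electrons from NADH through complex I, or from succinate through complex II, to coenzyme Q, complex III, cytochrome c and complex IV, where oxygen is reduced. Complexes I, III and IV pump protons across the inner mitochondrial membrane, and complex V, the ATP synthase, uses the returning protons to make ATP. Complex II is built from nuclear genes alone, whereas each of the other complexes joins nuclear-encoded subunits with subunits encoded on the mitochondrial chromosome (chrM) and translated inside the organelle.

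The libraries held between 30658136 and 39182371 counted reads. The knockdown was seen in every library. DDX17 was counted at 177, 184 and 206 CPM in the controls and at 32.1, 30.8 and 30.4 CPM in siDDX17, where CPM is the normalised read count (reads per 1000000 after TMM scaling). Its log2 fold change was −2.60 (SE 0.07), with an adjusted p of 5.89e-11 in the quasi-likelihood test of edgeR, where the Benjamini-Hochberg adjustment ran over all genes tested. This test is behind every adjusted p below, and a gene is called at an adjusted p under 0.05. Of the epithelial markers, KRT8, KRT18, KRT19 and CDH1 were above 10 CPM in every library, while EPCAM was at 0.738 to 2.28 CPM. PTPRC, PECAM1 and DCN, which mark leukocytes, endothelium and fibroblasts, had 0 to 9 reads per library. EPCAM was upregulated by 1.35 on the log2 scale and KRT8, KRT18 and KRT19 fell by between 0.18 and 0.32, and the part of such marker changes in the results below was not tested.

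Among the 82 tested members, 11 were upregulated and 26 were downregulated, and 45 were not called. Upregulated members made up 13.4% and downregulated members 31.7%, against 24.5% and 24.3% of all genes tested. Most members are abundant, with 77 of the 82 at 20 CPM or more, and among the 6009 tested genes at that level 24.5% were upregulated and 34.6% downregulated. With all 6 libraries the downregulated share of the members was thus near that of genes of like abundance, and without the library siCtrl 1 it was higher, at 58.5% beside 41.7%. The median log2 fold change of the members was −0.06, beside 0.01 for all genes and −0.06 for the genes at 20 CPM or more. In bulk RNA a change in the makeup of the culture and a change in the RNA of each cell cannot be told apart.

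The changes were small. For 64 of the 82 members the fitted change was within 1.2-fold in either direction, and the largest fall was −0.85, for ATP5SL. Under the limits of the study's methods, an unadjusted p under 0.01 and a fold change over 1.5 or under 2/3, 1 member was upregulated and 4 were downregulated (NDUFA2, ATP5J2, ATP5J2-PTCD1 and ATP5SL), where 11.0% and 8.03% of all genes passed in those directions. The 3 siDDX17 values lay all above the siCtrl values for 13 members and all below them for 24, against 28.8% and 27.7% of all genes.

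**Figure D1:**
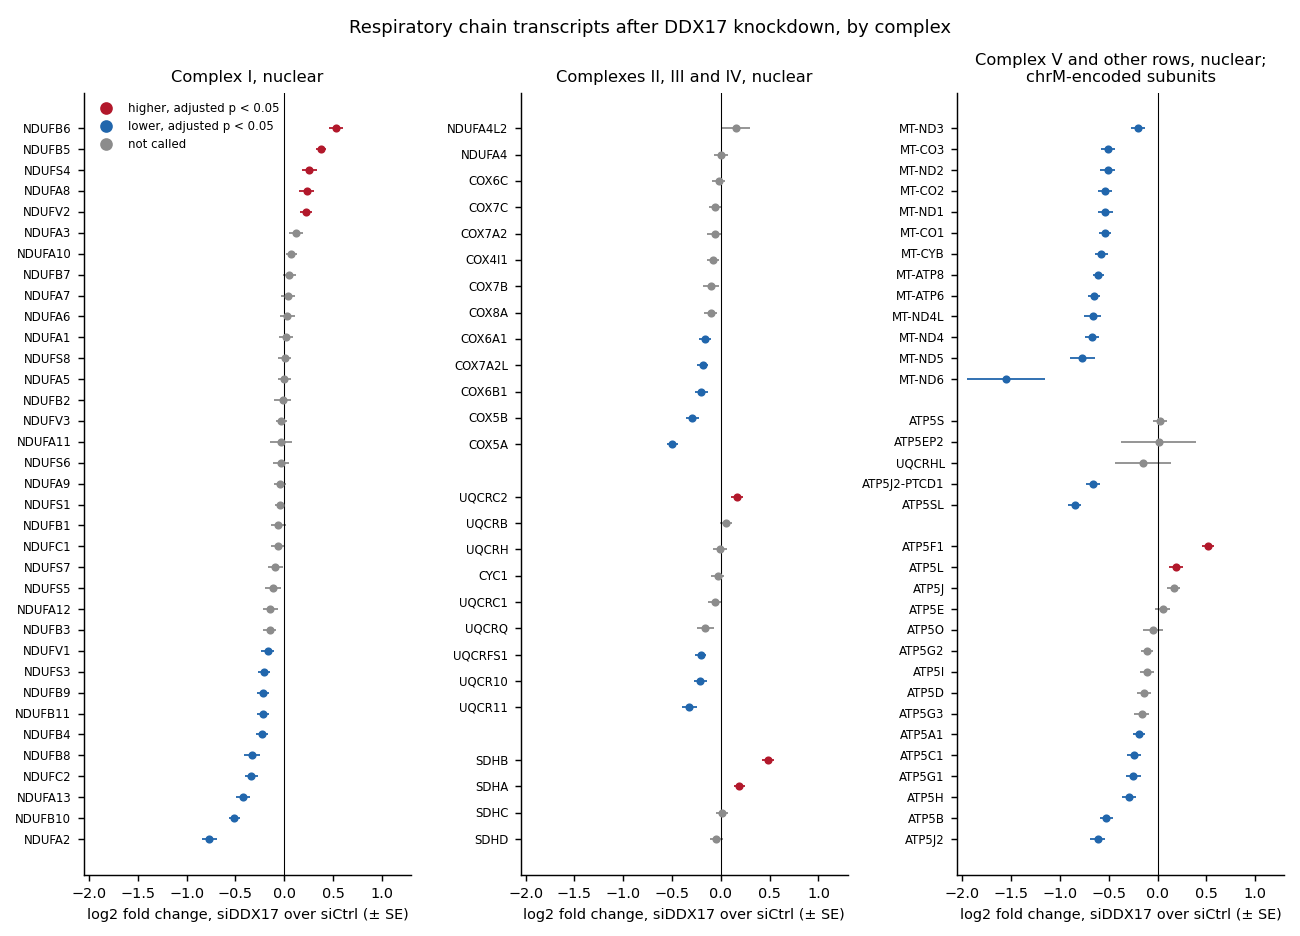
Log2 fold change (siDDX17 over siCtrl, x axis) with its standard error for 81 of the 82 tested nuclear-encoded genes, ordered within its complex from top to bottom, and for the 13 chrM-encoded subunits in the right panel. Red points were upregulated, blue points downregulated and grey points not called; most nuclear-encoded genes lie near 0, and all 13 chrM points lie below 0.

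The control library siCtrl 1 stood apart from the other controls for these genes. It was below both other controls for 72 of the 82 members (87.8%), beside 38.1% of all genes tested and 49.2% of those at 20 CPM or more. The median log2 ratio of siCtrl 1 to the mean of the other controls was −0.19 over the members. Short transcripts had the same direction in that library, with a median ratio of −0.12 over the 1862 genes whose canonical transcript was under 1000 bases and of 0.02 over the 13581 longer genes, and 46 of the 82 members were in the short class. The part of RNA quality or library preparation in this was not tested. Without siCtrl 1, 9 members were upregulated and 48 downregulated (11.0% and 58.5%), against 26.4% and 27.0% of all genes tested and 26.9% and 41.7% of the 6009 genes at 20 CPM or more. The median of the members was then −0.15 and that of the genes at 20 CPM or more −0.07. There were 35 members called in the same direction with and without it. The medians of complexes I to V without siCtrl 1 were −0.12, 0.06, −0.13, −0.17 and −0.23. The counts of downregulated members rose from 10 to 18 of 36 in complex I, from 3 to 7 of 9 in complex III, from 5 to 10 of 13 in complex IV and from 6 to 11 of 15 in complex V, and complex II had 0 in either case. In complex I the matrix arm then had 6 and the membrane arm 12, and the c-ring genes of complex V had 3 of 3. The counts by complex below are those with all 6 libraries.

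Complex I, the NADH dehydrogenase, had 36 tested nuclear-encoded members. Of these, 6 (16.7%) were upregulated and 10 (27.8%) downregulated, with a median log2 fold change of −0.04. Over all genes tested the shares were 24.5% and 24.3%, and over those at 20 CPM or more 24.5% and 34.6%. The matrix arm, which oxidises NADH and hands electrons to coenzyme Q, had 3 upregulated and 3 downregulated members of 16 (18.8% each). The membrane arm, which pumps protons, had 3 upregulated and 7 downregulated members of 20 (15.0% and 35.0%). Summed over the complex, the siDDX17 CPM was 0.963 of the siCtrl CPM. The same ratio was 0.918 over all genes tested and 0.913 over those at 20 CPM or more.

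Of the core subunits of the matrix arm, which carry the electrons, NDUFV2 rose by 0.23 on the log2 scale, NDUFS3 and NDUFV1 fell by 0.21 and 0.17, and NDUFS1, NDUFS7 and NDUFS8 were not called. The call of NDUFV1 was narrow (adjusted p 0.0492) and its groups overlapped, though without siCtrl 1 its adjusted p was 6.66e-05. With library size as the only scaling, neither NDUFS3 nor NDUFV1 was called (adjusted p 0.242 and 0.54). The core subunits named here, which work in one electron path, did not share one direction under TMM scaling.

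NDUFA2, a small accessory subunit at the tip of the matrix arm, was the complex I member that fell most. Its values were 92.3, 108 and 113 CPM in siCtrl and 59.0, 64.7 and 60.4 CPM in siDDX17, with no overlap between the groups. The log2 fold change was −0.77 (SE 0.07, adjusted p 2.38e-06). The gene (chr5:140638740-140647771, minus strand, in GRCh38 and GENCODE release 44) shares 124 exonic bases with TMCO6 and 54 with IK, both on the opposite strand. TMCO6 was at 3.48 CPM in siCtrl and IK at 83.0 CPM, near the level of NDUFA2, and neither was called (0.02 and 0.01).

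In the membrane arm, NDUFB6 rose from 46.1, 53.3 and 56.4 CPM to 73.3, 74.1 and 77.0 CPM (log2 fold change 0.53, SE 0.07, adjusted p 4.77e-05). NDUFB10 fell from 185, 201 and 191 CPM to 133, 140 and 132 CPM (log2 fold change −0.51, SE 0.06, adjusted p 7.27e-06). Both are accessory subunits of the distal part of the arm, and in neither did the groups overlap. NDUFB5 and NDUFA8 also rose, by 0.38 and 0.23, and NDUFA13, NDUFC2, NDUFB8, NDUFB4, NDUFB11 and NDUFB9 fell by between 0.42 and 0.21. In the matrix arm NDUFS4, an accessory subunit, rose by 0.26. NDUFS5, the complex I member with the highest FPKM in siCtrl, was at 184, 244 and 231 CPM in siCtrl and at 200, 207 and 200 CPM in siDDX17 (log2 fold change −0.12, SE 0.09, adjusted p 0.283), and its siDDX17 values lay inside the control range. Without siCtrl 1, the lowest of its controls, NDUFS5 was downregulated (−0.24, adjusted p 5.23e-05).

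Complex II, succinate dehydrogenase, was the complex in which no member was downregulated. Of its 4 members 2 were upregulated (50.0%), beside 24.5% of all genes tested. Its catalytic subunits rose: SDHB, the iron-sulfur subunit, was at 77.1, 87.8 and 87.0 CPM in siCtrl and at 118, 116 and 118 CPM in siDDX17 (log2 fold change 0.48, SE 0.06, adjusted p 2.44e-05). SDHA, the flavoprotein that oxidises succinate, was at 119, 130 and 128 CPM against 143, 148 and 138 CPM (log2 fold change 0.19, SE 0.06, adjusted p 0.0151). In both genes all siDDX17 libraries were above all controls. The call of SDHA was lost without siDDX17 1 (0.19, adjusted p 0.0539) or without siDDX17 2 (0.16, adjusted p 0.0664). The membrane anchors SDHC and SDHD had log2 fold changes of 0.01 (SE 0.06) and −0.04 (SE 0.06) and were not called. The members of complex II took 0.0394%, 0.0399% and 0.0413% of the reads in the controls and 0.0488%, 0.0492% and 0.0490% after knockdown. Their summed CPM was 1.12 times the control value, beside the 0.918 that the TMM scaling sets over all genes tested. Their median log2 fold change was 0.10, beside 0.01 for all genes tested. SDHA also has close copies elsewhere in the genome, so its counts could be affected by how reads shared with them were treated.

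Complex III, the cytochrome bc1 complex, had 1 upregulated and 3 downregulated members of 9 (11.1% and 33.3%). Beside this, 24.5% and 24.3% of all genes tested were called, and 24.5% and 34.6% of those at 20 CPM or more. UQCRC2, a core protein, was at 155, 180 and 170 CPM in siCtrl and at 189, 186 and 192 CPM in siDDX17 (log2 fold change 0.17, SE 0.06, adjusted p 0.0385). When 1 library was left out, this call was lost in every case except siCtrl 2, and without siCtrl 1 the value was 0.10 (adjusted p 0.0774). UQCR11, a small accessory subunit, fell from 26.6, 30.5 and 30.4 CPM to 21.9, 24.1 and 24.0 CPM (log2 fold change −0.32, SE 0.08, adjusted p 0.00346), and UQCR10 from 108, 126 and 128 CPM to 101, 108 and 104 CPM (−0.21, SE 0.07, adjusted p 0.0217). The call of UQCR10 was lost when siCtrl 2, siCtrl 3, siDDX17 1 or siDDX17 3 was left out (adjusted p 0.0722 to 0.0945). UQCRFS1, the Rieske iron-sulfur protein, fell by 0.21, and CYC1, the cytochrome c1 heme protein, had a log2 fold change of −0.03. UQCRH, the member with the highest FPKM here, was at 246, 295 and 299 CPM and at 278, 285 and 271 CPM (−0.01, SE 0.07, adjusted p 0.911), with the siDDX17 values inside the control range. Without siCtrl 1 it was downregulated (−0.11, adjusted p 0.0489).

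Complex IV, cytochrome c oxidase, had no upregulated member and 5 downregulated members of 13, with a median log2 fold change of −0.10. The downregulated share was 38.5%, beside 24.3% of all genes tested and 34.6% of those at 20 CPM or more. COX5A, a matrix-facing accessory subunit, was at 274, 294 and 296 CPM in siCtrl and at 205, 209 and 199 CPM in siDDX17 (log2 fold change −0.50, SE 0.06, adjusted p 8.77e-06). COX5B, which binds zinc on the same side of the complex, was at 274, 316 and 303 CPM against 232, 257 and 239 CPM (−0.29, SE 0.07, adjusted p 0.00217). For both genes the lowest control exceeded the highest siDDX17 library. COX6B1, COX7A2L and COX6A1 fell by between 0.20 and 0.16. COX6A1, at 434, 488 and 455 CPM in siCtrl and 393, 429 and 410 CPM in siDDX17 (adjusted p 0.0447), had the highest FPKM of the complex. Its call was lost when siCtrl 2, siCtrl 3, siDDX17 1 or siDDX17 3 was left out (adjusted p 0.0696 to 0.19). The 8 other members were not called. NDUFA4, which carries a complex I name but is a complex IV subunit, had a log2 fold change of 0.00 (SE 0.07). NDUFA4L2, its hypoxia-inducible paralog, was low in every library, at 2.55 to 3.12 CPM, and was not called (0.15, SE 0.15, adjusted p 0.401). It shares 33 bases with SHMT2 on the opposite strand, which was at 187 CPM in siCtrl. The tissue isoforms COX6B2 and COX7B2 had 0 to 8 reads per library and did not pass the filter.

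Complex V, the ATP synthase, had 2 upregulated and 6 downregulated members of 15 and the lowest median of the 5 complexes, −0.14. Its catalytic head, F1, had 3 downregulated members of 5. ATP5B, the catalytic beta subunit (now ATP5F1B), had the highest CPM of the nuclear-encoded members, not corrected for length. It was at 1227, 1332 and 1408 CPM in siCtrl and at 896, 959 and 903 CPM in siDDX17. Its log2 fold change was −0.52 (SE 0.06, adjusted p 1.76e-05), while the alpha and gamma subunits ATP5A1 and ATP5C1 fell by 0.19 and 0.24. The F1 genes together had a summed CPM of 0.798 of the control value, beside the 0.918 that the TMM scaling sets over all genes tested. ATP5B held most of the F1 sum in the controls. The delta and epsilon subunits ATP5D and ATP5E were not called (−0.14 and 0.05).

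The rest of the ATP synthase did not move in one direction. ATP5F1, subunit b of the peripheral stalk that holds F1 in place (now ATP5PB), rose from 127, 147 and 144 CPM to 202, 195 and 201 CPM (log2 fold change 0.52, SE 0.06, adjusted p 1.82e-05). ATP5H, subunit d of the same stalk, fell by 0.29. ATP5J2, a small membrane subunit (subunit f, now ATP5MF), fell from 110, 133 and 131 CPM to 78.6, 85.6 and 80.0 CPM (−0.61, SE 0.07, adjusted p 1.71e-05). ATP5L, subunit g beside it, was at 130, 158 and 158 CPM against 165, 173 and 171 CPM (0.19, SE 0.07, adjusted p 0.0459), and this call was lost without siCtrl 1 (0.09, adjusted p 0.115) or without any of the siDDX17 libraries (adjusted p 0.0797 to 0.137). Of the 3 genes for the proton-carrying c-ring, whose products are the same mature protein, ATP5G1 fell by 0.25, and ATP5G2 and ATP5G3 were not called.

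**Figure D2:**
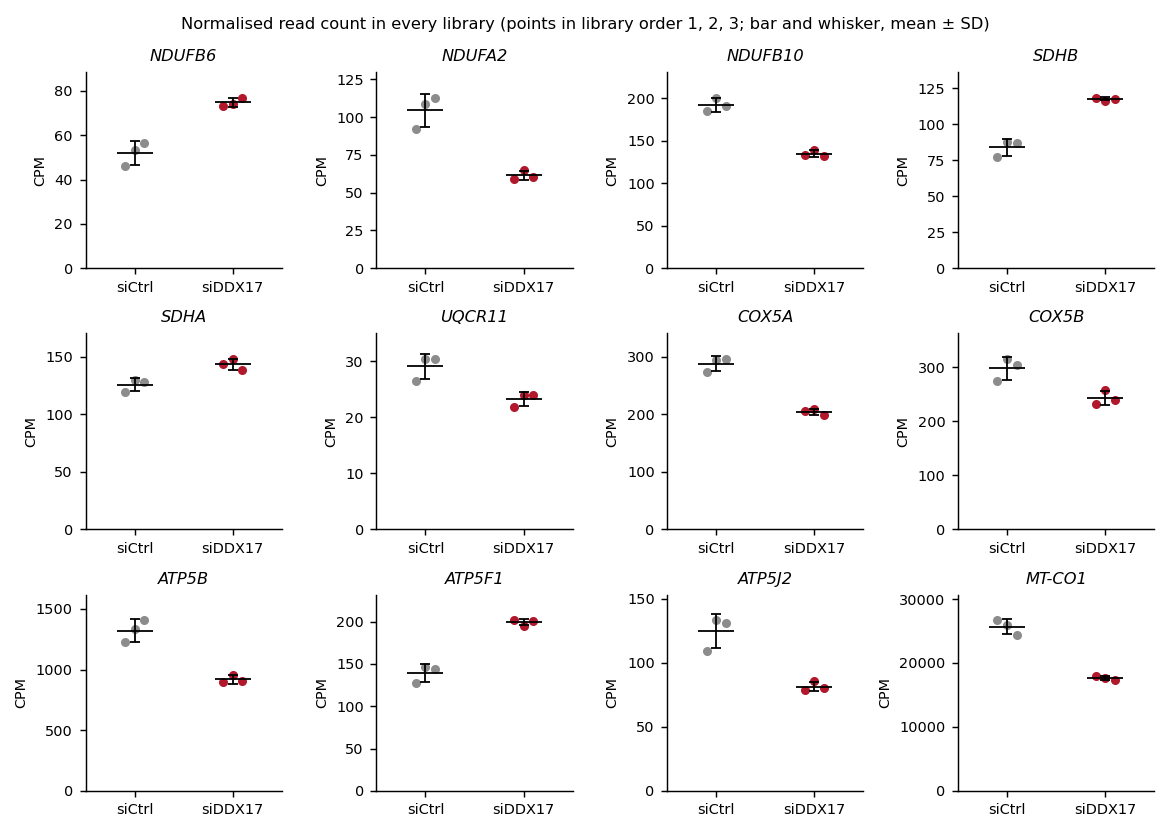
CPM (y axis, from 0) in each library of 11 nuclear-encoded genes and MT-CO1, with siCtrl in grey, siDDX17 in red, and the mean ± SD over 3 libraries as bar and whisker. NDUFB6, SDHB, SDHA and ATP5F1 are higher in all 3 siDDX17 libraries and the other 8 genes lower, and siCtrl 1 (left grey point) is the lowest control in all 11 nuclear-encoded genes.

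The 5 other tested members carry an ATP5 or UQCR name but are not subunits. ATP5SL (now DMAC2), a factor in assembly of the complex I membrane arm, had the largest fall of all 82 members, from 114, 130 and 120 CPM to 64.2, 69.7 and 67.8 CPM (log2 fold change −0.85, SE 0.06, adjusted p 2e-07). ATP5J2-PTCD1, a readthrough gene, was at 67.7, 82.2 and 77.4 CPM against 47.1, 49.7 and 47.3 CPM (−0.66, SE 0.07, adjusted p 6.02e-06). It shares 166 exonic bases with ATP5J2 and most of its remaining sequence with PTCD1, which was upregulated (0.50). ATP5S (now DMAC2L) had a log2 fold change of 0.03 and was not called, and the retrocopies UQCRHL and ATP5EP2 were below 1 CPM in every library. A further retrocopy, ATP5L2, and a low row also named NDUFA7 had 0 to 3 reads per library and were not tested.

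Several members share exons with other annotated genes on the same strand, and how such reads were divided in the counting was not given. NDUFB8 was at 33.7 CPM in siCtrl while a readthrough gene that shares 675 of its bases was at 192 CPM, and both were downregulated (−0.33 and −0.38). NDUFA11 was at 9.61 CPM beside a readthrough gene at 83.4 CPM, UQCR11 at 29.2 beside one at 114, and ATP5O at 40.9 beside one at 105. The tested row named NDUFA7 is a readthrough with CD320 in GENCODE release 44. The CPM of these members is therefore no measure of the full output of the subunit's gene. On the opposite strand, NDUFB8 also shares 325 bases with HIF1AN (90.4 CPM in siCtrl, log2 fold change −0.34) and ATP5J2-PTCD1 157 bases with CPSF4 (33.0 CPM, −0.67), and both of these genes were downregulated. The 3 readthrough genes beside NDUFA11, UQCR11 and ATP5O were not called, with log2 fold changes of −0.04, −0.16 and −0.02.

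Levels of different genes can be set side by side only per length, here as siCtrl CPM per 1000 bases of the canonical transcript in GENCODE release 44. On this scale COX6B1 had 1082, COX4I1 855, COX6A1 855, COX7C 820 and ATP5B 752. The catalytic complex II genes SDHA and SDHB were at 46.7 and 82.7, and the anchors SDHC and SDHD at 109 and 50.0. The chrM-encoded subunits ran from 430 (MT-ND6) to 25410 (MT-CO3). Small complex IV genes thus stood well above the complex II genes, and most chrM genes above both. The transcript actually used in these cells was not measured, so a gene whose canonical transcript has a long 3' end can be placed too low. A gene whose canonical transcript is short can likewise be placed too high. The authors' FPKM, which rest on other gene lengths, gave another order. Their siCtrl means were 734 for COX6A1, 658 for ATP5B, 516 for COX6B1, 336 for COX4I1 and 257 for COX7C.

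The 13 chrM-encoded subunits all fell, with a median log2 fold change of −0.57, beside the 24.3% of all genes tested that were downregulated. They code for 7 subunits of complex I, 1 of complex III, 3 of complex IV and 2 of complex V, and none of complex II. MT-CO1, the catalytic subunit of complex IV, was at 26710, 25970 and 24360 CPM in siCtrl and at 17960, 17720 and 17370 CPM in siDDX17 (log2 fold change −0.54, SE 0.07, adjusted p 1.75e-05). For 12 of the 13 genes every siDDX17 library was below every control. The exception was MT-ND3, which had the smallest fall (−0.20, SE 0.07, adjusted p 0.0379). The nuclear-encoded subunits of complex IV, with a median of −0.10, changed less than MT-CO1, MT-CO2 and MT-CO3, at −0.54, −0.54 and −0.51.

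MT-ND6 had the largest fitted fall (−1.55, SE 0.40, adjusted p 0.00581), and 1 library decided its size. It was at 450, 106 and 121 CPM in siCtrl and at 71.0, 87.9 and 72.3 CPM in siDDX17, so siCtrl 1 alone was far above the rest. Without siCtrl 1 the log2 fold change was −0.57 (adjusted p 1.88e-09), close to that of the other chrM genes, and with DESeq2 over all 6 libraries its adjusted p was 0.0661. MT-ND6 is the subunit gene encoded on the opposite strand to the other 12. MT-ND5, its neighbour, was also highest in siCtrl 1, at 4146 CPM beside 2692 and 2708 CPM. Over the chrM genes siCtrl 1 was above both other controls for 10 of 13, the reverse of the nuclear-encoded members.

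As shares of all counted reads, the 13 chrM mRNAs took 12.0%, 11.1% and 10.4% in the controls and 8.36%, 8.25% and 8.06% after knockdown. Such shares use no TMM factor and do not correct for the composition of the libraries. The 77 nuclear-encoded subunits took 1.34%, 1.45% and 1.48% against 1.41%, 1.45% and 1.43%. The nuclear share thus overlapped between the groups, and the chrM share did not. The nuclear overlap came from siCtrl 1 alone. The controls siCtrl 2 and siCtrl 3, at 1.452% and 1.479%, lay above every siDDX17 library, though siCtrl 2 only just (siDDX17 2 at 1.45%). For each read of a nuclear-encoded subunit there were 8.94, 7.64 and 7.02 reads of chrM mRNA in the controls and 5.95, 5.69 and 5.65 after knockdown. With 3 against 3 libraries an exact permutation test cannot fall below 0.1, so no p is given for these shares. Unique alignment treats reads shared with nuclear copies of chrM in a way that was not given, and neighbouring chrM genes such as MT-ATP8 and MT-ATP6 overlap and are cut from 1 precursor, so the 13 genes are not independent measurements.

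**Figure D3:**
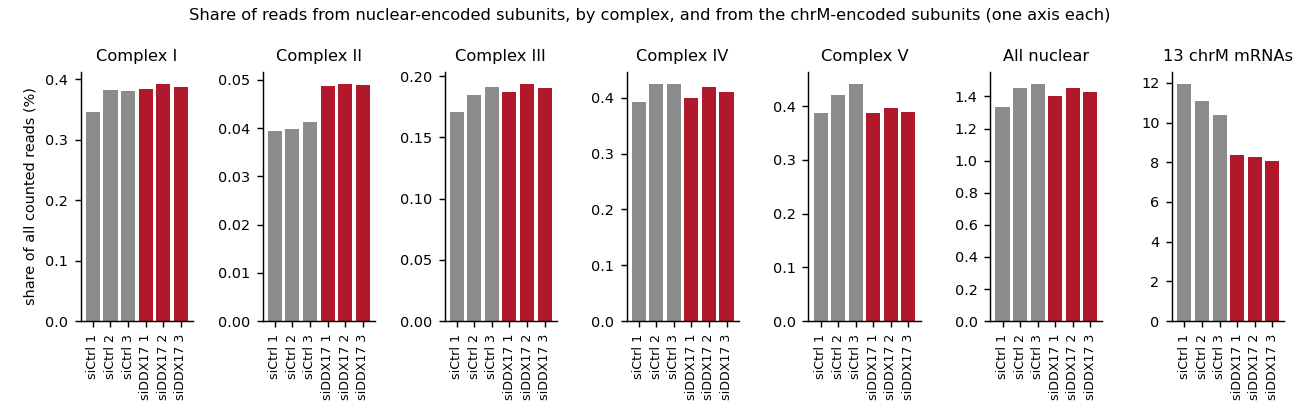
Share of all counted reads (%, y axis from 0 with its own scale in each panel) in each library for the nuclear-encoded subunits of complexes I to V, for all 77 of them together and for the 13 chrM mRNAs, with siCtrl in grey and siDDX17 in red. The complex II panel rises from 0.0394 to 0.0413% in siCtrl to 0.0488 to 0.0492% in siDDX17, the chrM panel falls from 10.4 to 12.0% to 8.06 to 8.36%, and the total nuclear share overlaps between the groups.

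The direction of the nuclear-encoded members depended on the scaling. The siDDX17 libraries had TMM factors of 1.03 to 1.06 and the siCtrl libraries 0.934 to 0.985. With library size as the only scaling, the median of all genes moved from 0.01 to 0.13, and 17 members were upregulated and 12 downregulated (20.7% and 14.6%), against 33.5% and 16.0% of all genes and 37.5% and 22.0% of those at 20 CPM or more. The median of the members was then 0.06, which was still lower than that of all genes by an amount similar to that under TMM. It was near the median of the genes at 20 CPM or more, 0.07. Upregulated and downregulated members then numbered 9 and 5 in complex I, 2 and 0 in complex II, 2 and 1 in complex III, 0 and 2 in complex IV and 4 and 2 in complex V. The medians of complexes I, III and IV turned positive (0.09, 0.06 and 0.03), that of complex II stayed positive (0.22) and that of complex V stayed negative (−0.01). Of the 13 chrM genes 12 were still downregulated, with a median of −0.45, and MT-ND3 was not called. Members called in the same direction under every setting tried on the counts included ATP5F1, NDUFB5, NDUFB6 and SDHB among the upregulated, and ATP5B, ATP5J2, ATP5J2-PTCD1, ATP5SL, COX5A, COX5B, NDUFA13, NDUFA2, NDUFB10, NDUFB8, NDUFC2 and UQCR11 among the downregulated.

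**Figure D4:**
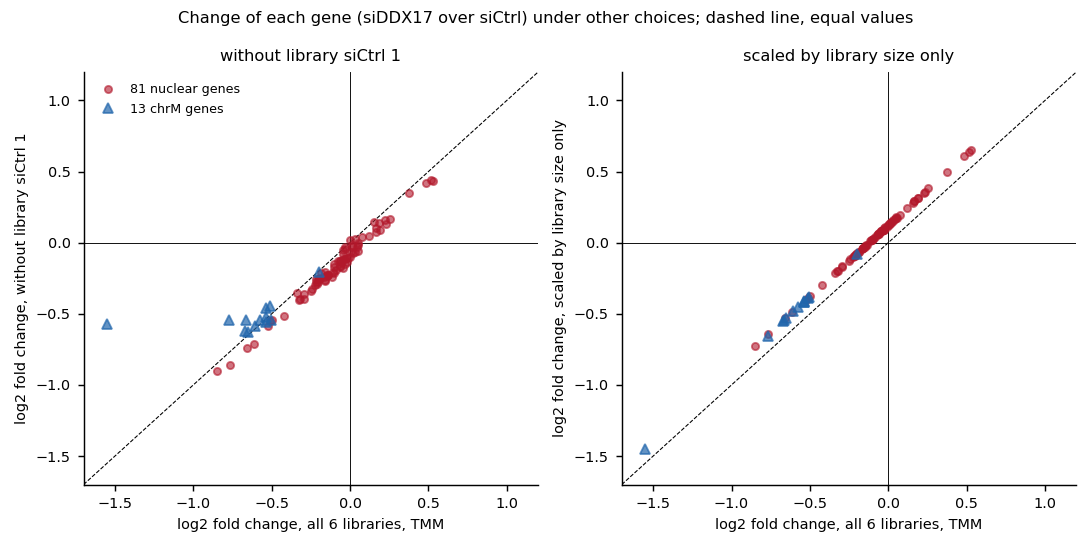
Log2 fold change of 81 of the 82 nuclear-encoded members (red) and 13 chrM genes (blue triangles) with all 6 libraries and TMM scaling (x axis) against the value without library siCtrl 1 (left, y axis) and with library size as the only scaling (right, y axis). Most nuclear-encoded members lie below the dashed line of equal values on the left and all genes lie above it on the right, and MT-ND6 moves from −1.55 to −0.57 without siCtrl 1.

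The assembly factors, which build the complexes without being part of them, had 17 upregulated and 11 downregulated of 53 tested, with a median of 0.04. These shares were 32.1% and 20.8%, beside 24.5% and 24.3% of all genes tested. For complex I, 8 of 16 factors were upregulated and 4 downregulated, and for complex III 3 of 6 and 1 of 6. For complex IV the counts were 4 and 4 of 23, for complex V 2 and 1 of 4, and for complex II 0 and 1 of 4. C7orf55 (now FMC1), an ATP synthase assembly factor, rose from 7.56, 8.15 and 7.95 CPM to 16.9, 18.7 and 17.1 CPM (log2 fold change 1.16, SE 0.08, adjusted p 1.72e-07), and PET117, a complex IV factor, rose from 10.8, 10.8 and 9.69 CPM to 16.9, 18.4 and 17.7 CPM (0.76, SE 0.08, adjusted p 6.22e-06). TMEM70, which helps assemble the c-ring, fell from 49.3, 51.4 and 55 CPM to 37.3, 36.7 and 38.4 CPM (−0.47, SE 0.06, adjusted p 3.34e-05). COX19, a copper-handling factor of complex IV, fell from 15.9, 15.4 and 11.6 CPM to 10.6, 10.8 and 11.0 CPM (−0.41, SE 0.11, adjusted p 0.00789). FMC1 also has an annotated readthrough partner, so its count is uncertain.

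Of the 14 genes for cytochrome c and coenzyme Q synthesis, 5 were upregulated and 5 downregulated. These shares were 35.7% each, beside 24.5% and 24.3% of all genes tested. COQ5, the C-methyltransferase of coenzyme Q synthesis, had the largest fall of any gene in these lists, from 40.1, 37.2 and 37.0 CPM to 11.6, 12.5 and 12.3 CPM (log2 fold change −1.65, SE 0.07, adjusted p 2.38e-09). ADCK3 (now COQ8A), an atypical kinase of the same pathway, fell by 0.47. PDSS2, which makes the isoprenoid tail, rose by 0.74, and COQ2, which attaches it to the ring, rose by 0.57. Enzymes of one pathway were thus called in opposite directions.

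In the citric acid cycle, which feeds electrons to complexes I and II, 6 of 14 genes were upregulated and 5 downregulated. These shares were 42.9% and 35.7%, beside 24.5% and 24.3% of all genes tested. CS, citrate synthase, was at 179, 178 and 190 CPM in the controls and at 267, 275 and 268 CPM in siDDX17 (log2 fold change 0.57, SE 0.05, adjusted p 2.07e-06), while IDH3B and DLST, subunits of isocitrate dehydrogenase and of the 2-oxoglutarate dehydrogenase complex, fell by 0.35 and 0.32. Of the 78 mitochondrial ribosomal protein genes, which serve translation of the chrM mRNAs, 16 were upregulated and 21 downregulated (20.5% and 26.9%, median −0.03). Of 83 cytosolic ribosomal protein genes, 5 were upregulated and 13 downregulated (6.02% and 15.7%, median −0.08). The cytosolic ribosomal protein genes, abundant and short like many members, were below both other controls in siCtrl 1 in 97.6% of cases. Without siCtrl 1 the downregulated mitochondrial ribosomal protein genes numbered 36 (46.2%, median −0.10) and the cytosolic ones 59 (71.1%, median −0.16). In that fit 27.0% of all genes tested and 41.7% of those at 20 CPM or more were downregulated. With library size only, 32 mitochondrial ribosomal protein genes were upregulated and 10 downregulated (41.0% and 12.8%). The cytosolic ones numbered 15 and 3 (18.1% and 3.61%) and the citric acid cycle genes 7 and 3 (50.0% and 21.4%). Those shares were 33.5% and 16.0% of all genes tested, and 37.5% and 22.0% of those at 20 CPM or more.

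Of 9 listed transcriptional regulators of these genes, 8 were tested, with ESRRG at 0 to 7 reads per library. Among the 8, 2 were upregulated and 2 downregulated (25.0% each), near the 24.5% and 24.3% of all genes tested. NRF1, a factor that binds many respiratory chain promoters, fell from 12.1, 10.9 and 12.1 CPM to 8.69, 9.33 and 8.10 CPM (log2 fold change −0.43, SE 0.09, adjusted p 0.00167). GABPA, the DNA-binding ETS subunit of GABP, fell from 9.81, 7.97 and 7.05 CPM to 6.02, 5.79 and 6.15 CPM (−0.47, SE 0.12, adjusted p 0.00692). GABPA shares exonic sequence with ATP5J on the opposite strand, and since the use of strand was not given the pair could not be fully separated. PPARGC1A, the coactivator PGC-1alpha, was low and rose from 2.89, 2.27 and 1.98 CPM to 3.63, 3.13 and 4.0 CPM (0.59, SE 0.17, adjusted p 0.0102), a call lost without siDDX17 3 (adjusted p 0.0565), and ESRRA rose by 0.23. GABPB1, PPARGC1B, PPRC1 and YY1 were not called.

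The promoters of the subunits were searched for motifs, though the falls of 2 of the 8 regulators were near the share over all genes tested. RefSeq promoters (GRCh38.p14, 250 bases before to 50 after the start) were found for 61 of the 77 tested subunits, and matches were counted on both strands for an ETS motif (CCGGAAG), an NRF1 motif (GCGCATGC), a YY1 motif (AAGATGGCG, which can overlap the end of the ETS motif) and a TATA motif (TATAAA). The ETS motif was in 31.1% of the subunit promoters, 19.0% of those of the 10452 tested protein-coding genes with an entry and 10.7% of all 27305 promoters. The NRF1 motif was in 21.3%, 5.41% and 3.27% in the same order, the YY1 motif in 11.5%, 3.93% and 1.85%, and the TATA motif in 8.20%, 5.62% and 12.0%.

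Motifs were found among subunits called in either direction. An ETS or NRF1 motif was in 3 of 9 promoters of upregulated subunits, 9 of 20 of downregulated subunits and 14 of 32 of subunits that were not called. These counts are too small to compare. The windows below are 30 bases each in the direction of the gene, with the motif in capitals. They are examples from SDHB, which rose, and from 3 genes that fell, and all 4 promoters hold the ETS motif. The genes were picked with their directions known, and the part of these motifs in the changes was not tested.
SDHB, ETS motif, chr1:17054142-17054171, minus strand: cacccgggaaaCCGGAAGccgcctcccact
COX5B, ETS motif, chr2:97646046-97646075, plus strand: gcagcttgttcCCGGAAGttttgctgctag
UQCR11, ETS motif, chr19:1605561-1605590, minus strand: tccaaccctcgCCGGAAGttactgtaagtg
NDUFA13, ETS motif, chr19:19516204-19516233, plus strand: tccgcccgggaCCGGAAGtgtgggatactg
SDHB, NRF1 motif read on the other strand, chr1:17054214-17054243, minus strand: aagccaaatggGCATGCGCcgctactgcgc
COX5B, NRF1 motif read on the other strand, chr2:97645915-97645944, plus strand: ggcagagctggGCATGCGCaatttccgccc
SDHB, YY1 motif, chr1:17054003-17054032, minus strand: gtcaggagccAAGATGGCGgcggtggtcgc

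SDHB thus held all 3 of the ETS, NRF1 and YY1 motifs while COX5B held the ETS and NRF1 motifs, and their log2 fold changes were 0.48 and −0.29. The YY1 motif was in 2 of 9 promoters of upregulated subunits, SDHB and NDUFS4, and in 0 of 20 of downregulated subunits, counts that are too small to compare. NDUFA2, the complex I member that fell most, held none of the ETS, NRF1 and YY1 motifs in its window. A match to these letters is a description of the sequence and does not show that a factor binds there. Binding of any factor, protein levels and respiration were not measured in these data.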

How the data were processed

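The authors trimmed the reads, aligned them to GRCh38 with TopHat2 and deposited raw counts of uniquely aligned reads per gene, with FPKM values that they had scaled by gene length and library size. The kit marked strand, but the counting program, the annotation version and the use of strand were not given in the sources used here. The counts were filtered for low genes, scaled by TMM and compared between 3 and 3 libraries by the quasi-likelihood test of edgeR 4.0.16 (R 4.3.3), and p-values were adjusted over all 15615 genes tested by Benjamini-Hochberg. Removing low genes and the choice of scaling can both move the calls, so both were varied, along with DESeq2 1.42.0, limma 3.58.1 on log2 FPKM and each library left out. The test was tested on simulated counts. Locations come from GENCODE release 44, matched by identifier for all 86 members. Symbols are those of the files.

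The members and gene lists were chosen with earlier results of these data known. Values per library were given for up to 2 rises and 2 falls among the called members of each complex and list, the member with the highest FPKM in siCtrl, the tissue or hypoxia isoforms that passed the filter, and DDX17. Some members and listed genes are not reported here by name, though they stand in the counts. Other genes, such as MT-CO1, were named after their values were seen. The main fit did not pair libraries by replicate number. The correlations of the deviations of same-numbered libraries were 0.00698, 0.0407 and −0.0564, so no shared deviation was seen. The labels do not say whether same-numbered libraries were prepared together.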

Additional observations from a re-analysis of the deposited data

How the results depend on the processing

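Over 17 alternative fits the members called upregulated, 11 with all libraries, numbered 17 with library size as the only scaling, 17 with limma on log2(FPKM + 1) and 6 to 12 when each library was left out, and 1 with the limits of the methods or with an absolute log2 fold change over 1. The downregulated members, 26 with all libraries, numbered 12 with library size only, 9 with limma on log2(FPKM + 0.1), 11 on log2(FPKM + 1) and 16 to 48 when each library was left out (48 without siCtrl 1, 16 without siCtrl 2 or siDDX17 3, 17 without siDDX17 1). They numbered 4 with the limits of the methods and 0 over an absolute log2 fold change of 1. The assembly factors, 17 upregulated and 11 downregulated, had 27 and 3 with library size only (50.9% and 5.66%, beside 33.5% and 16.0% of all genes). They had 28 and 3 on log2(FPKM + 1), 2 downregulated on log2(FPKM + 0.1), and 7 to 15 downregulated when each library was left out. Library size only and FPKM do not correct for the composition of the libraries. The chrM-encoded subunits had 12 or 13 downregulated when each library was left out. The cause of the other shifts was not tested.

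Values near 0 changed sign: NDUFS5 was 0.0102 with library size only and 0.0231 on both FPKM scales, and UQCRH was 0.0014 with at least 10 counts in every library, 0.11 with library size only, 0.12 on both FPKM scales, 0.0189 with upper-quartile scaling and −0.11 (without siCtrl 1) to 0.0381 (without siCtrl 3) when each library was left out, with 0.0183 without siCtrl 2 and 0.0062 without siDDX17 3. In all, 11 members that were not called changed sign without siCtrl 1 (SDHC, NDUFA4 and ATP5E among them), 24 with library size only (SDHD, CYC1 and NDUFS7 among them) and 36 in at least 1 alternative, all 36 with an absolute log2 fold change of at most 0.15 with all libraries. No member or listed gene that was called with all libraries and TMM reversed in any of the 17 alternatives. With the replicate number as a block, 11 members were upregulated and 26 downregulated, the chrM genes had 13 downregulated and the assembly factors 18 and 11. Whether the numbers pair the libraries was not given. Genes under about 1 CPM, such as UQCRHL, were too shallow for a change to be detectable.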
